A study of Homo sapiens with 12 samples.

Results

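The 47 genes described here encode proteins that make ribosomes, together with subunits and initiation factors of RNA polymerase I (Pol I). They were chosen by gene symbol, and each was found once among the 59276 features of the deposited table. By role they comprised 5 genes of the Pol I machinery, 3 proteins of the box C/D small nucleolar ribonucleoprotein particles (snoRNPs), 4 of the box H/ACA snoRNPs, 6 nucleolar chaperones and scaffolds, 17 factors of the small ribosomal subunit and 12 of the large subunit. All 47 were listed above 1 TPM in all 12 libraries, so none of them passed the filter on low values through one group alone. The lowest value was 1.35 TPM, for UTP20 in a day 5 library.

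Total RNA was sequenced from MM1S, a human multiple myeloma cell line, as 4 groups of 3 libraries, or 12 in all. NGI-1 is a small molecule that inhibits the oligosaccharyltransferase (OST) complex, the enzyme that attaches N-linked glycans to proteins in the endoplasmic reticulum. Cells were taken at day 0 and after 2, 3 and 5 days of NGI-1. NGI-1 is given as the treatment of every library, day 0 included, and day 0 was taken here as untreated because the study's text treats these cells as its control. All groups come from 1 cell line, with no genetic change named in the labels, and no group was kept without NGI-1 for the later days, so time in culture and NGI-1 cannot be told apart. The labels state more than 60000000 read pairs and 200 ng of RNA per library. They do not say that the 3 libraries of a group came from separate cultures, so the p-values measure only the spread between these libraries, which may be technical.

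Ribosome production starts in the nucleolus, where Pol I transcribes the long precursor of most ribosomal RNA with the help of the initiation factors UBTF and RRN3. Small nucleolar ribonucleoproteins then guide chemical modification of the precursor, box C/D particles for 2′-O-methylation and box H/ACA particles for pseudouridylation, while assembly factors fold, cut and export the small and large subunits. These genes are usually expressed together and at high levels in growing cells, and many of them are known targets of the transcription factor MYC. Plasma cells and myeloma cells make and secrete large amounts of protein and depend on this supply of ribosomes.

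Values are TPM, a length-corrected share of the transcripts in a library, deposited as log2(TPM + 1). A fold change is a difference of group means on that log2 scale, which understates changes of the lowest genes. Calls of lower or higher required a Benjamini-Hochberg adjusted p under 0.05 in limma's two-sided moderated test, fitted on 11939 features, with the log2 fold change more than 0.5 away from 0. Over all tested features the median log2 fold change lay below 0 too, being -0.18, -0.73 and -0.99 on days 2, 3 and 5. For this reason the main calls and fold changes are also given after rescaling. In it, each library was shifted so that its log2 ratios to the 12-library mean had a median of 0. That median was taken over the 5433 features that averaged 10 TPM or more. On that scale the median of all tested features was 0.01, -0.03 and -0.02. In bulk RNA, fewer transcripts of a gene per cell and a smaller share of cells that express it cannot be told apart.

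The labelled cell type was checked first. All 8 listed plasma cell markers were above 0 in all 12 libraries, with different courses. XBP1 ranged from 1451 to 1597 TPM at day 0 and from 301 to 448 TPM at day 5, and SDC1 from 478 to 512 and from 128 to 164 TPM, whereas TNFRSF17 ranged from 549 to 606 and from 2050.4 to 2129 TPM, and JCHAIN from 8732 to 10731 and from 16774 to 17845 TPM. Of 14 markers of T cells, monocytes, erythroid cells, endothelium and fibroblasts, CD3D, VWF, CDH5 and COL1A2 were listed at 0 in all 12 libraries, while CD3E ranged from 2.75 to 7.22 TPM and PECAM1 from 1.25 to 8.09 TPM. HBB, a marker of erythroid cells, was at 0 at days 0 and 2 and from 0.101 to 1.14 TPM at days 3 and 5, and the part of these levels in the results was not tested. Libraries H8 of day 3 and H12 of day 5 stood apart from their replicates for the genes described here. On the log2 scale the median member was 0.27 higher in H8 than in H9, and H10 minus H12 was -0.40. On the deposited scale the main results that depend on either library are given with and without it. The rescaled fits were not repeated with a library left out, so rescaled calls are given with all 12 libraries only.

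Transcripts of ribosome biogenesis and Pol I genes fell over the course of NGI-1, and most members fell further than the typical gene. Their summed level was 7989 ± 246 TPM at day 0 (SD, n = 3), 5427 ± 108 TPM at day 2, 4141 ± 29.5 TPM at day 3 and 3248 ± 66.5 TPM at day 5 (SD over n = 3). The 4 groups did not overlap, with the lowest day 0 library at 7844 TPM and the highest day 5 library at 3313 TPM. On the deposited scale 35 members were called lower at day 2, 43 at day 3 and 45 at day 5, and none higher. Among all tested features, 23.2%, 61.5% and 69.8% were called lower on these days and 8.03%, 7.59% and 7.73% higher. The median log2 fold change of the members was -0.68, -1.49 and -2.14, and the difference from the median of all tested features was -0.49, -0.76 and -1.15. After rescaling, 21, 28 and 33 members were called lower against 11.4%, 24.2% and 26.9% of all features, and 0, 4 and 4 were called higher against 12.9%, 23.9% and 27.5%. Their rescaled medians were -0.44, -0.64 and -0.98. The count at day 3 was 43 without H8, and at day 5 it was 44 without H12.

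Treated and day 0 libraries barely overlapped. All 3 treated libraries lay below all 3 day 0 libraries for 43 of the 47 genes at day 2, 45 at day 3 and 45 at day 5, where 44.1%, 70.5% and 75.2% of all tested features did so. After rescaling this held for 39, 35 and 37 members, beside 28.6%, 37.1% and 36.7% of all features, and 0, 4 and 4 members had all treated libraries above day 0, beside 28.2%, 34.5% and 35.4%. The mean TPM was under 50% of its day 0 value for 2 members at day 2, 34 at day 3 and 43 at day 5, beside 7.72%, 45.1% and 59.2% of all features. It was under 25% for 0, 9 and 28 members, beside 1.06%, 9.57% and 21% of all features. In all, 35 members were called lower on each of the 3 days as deposited and 18 after rescaling, beside 22.6% and 9.64% of all features.

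The composition of this set of transcripts also shifted. NPM1, which encodes the abundant nucleolar chaperone nucleophosmin, made up 27.8% ± 1.28 of the members' summed TPM at day 0 and 48.1% ± 4.56 at day 5 (SD over n = 3). NCL, which encodes the RNA-binding protein nucleolin, went from 13.1% ± 0.989 to 6.06% ± 1.28 over the same days (SD over n = 3). On the deposited scale the summed level without these 2 genes was 4721 ± 48.1 TPM at day 0 and 1489 ± 77.6 TPM at day 5 (SD over n = 3).

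**Figure D1:**
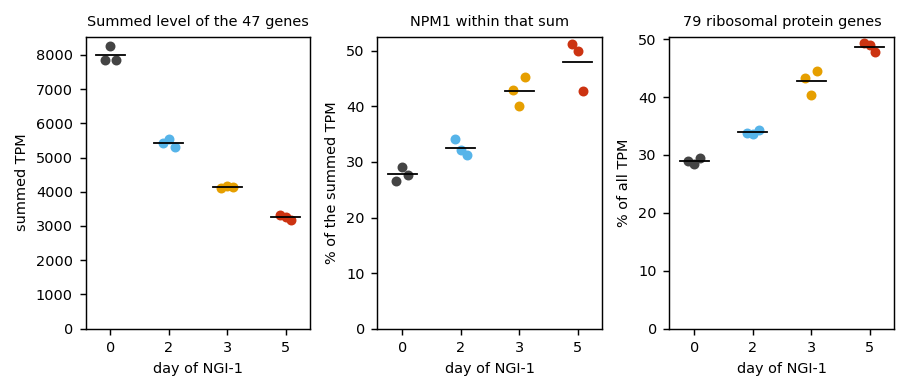
Summed TPM of the 47 genes, the share of NPM1 in that sum and the share of all TPM from 79 ribosomal protein genes, by day of NGI-1, with 1 point per library and a line at the mean of 3 libraries. On the deposited scale the summed level falls from a mean of 7989 to 3248 TPM while the share of NPM1 rises from 27.8% to 48.1%.

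**Figure D2:**
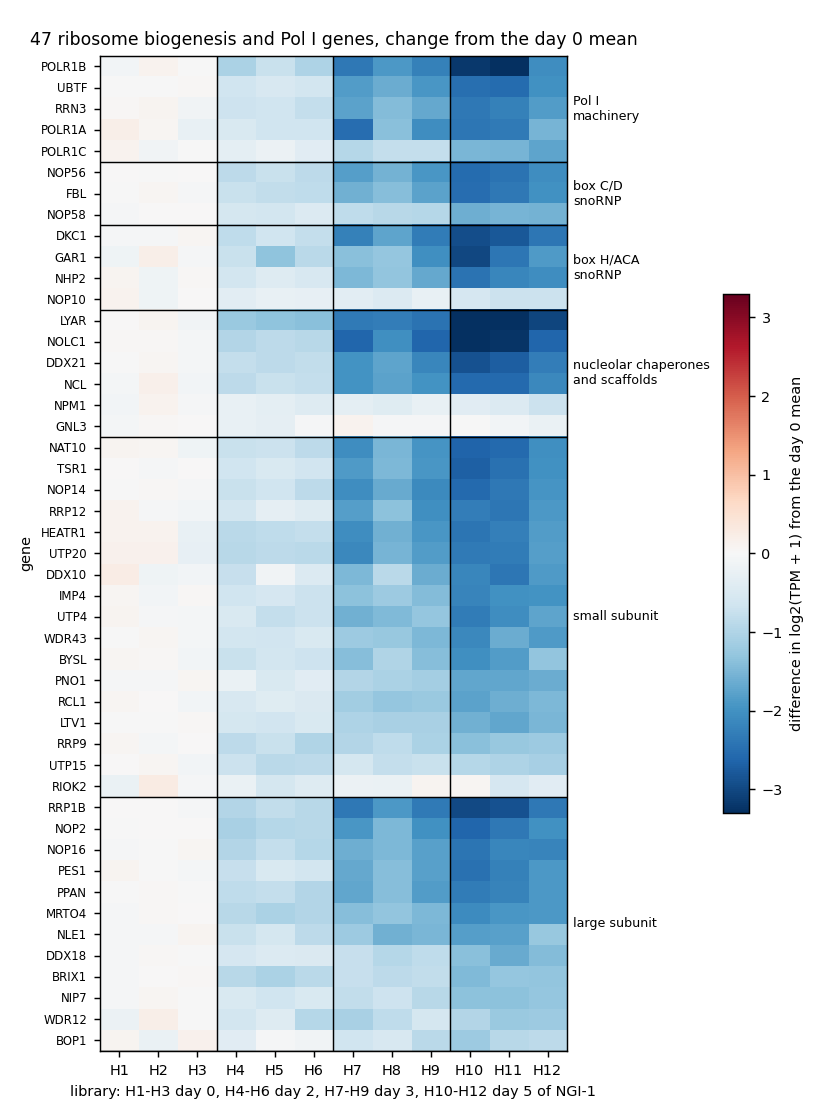
Difference in log2(TPM + 1) from the day 0 mean for the 47 genes in each of the 12 libraries, grouped by role and ordered within a role by the change at day 5. Blue deepens from day 2 to day 5 in most rows, while the rows of NPM1, GNL3, NOP10 and RIOK2 stay pale.

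The Pol I machinery was called lower in all 5 members at day 3 and day 5, and in 3 at day 2. After rescaling 4 were called at day 3 and at day 5, and 1 at day 2. Among all tested features 23.2%, 61.5% and 69.8% were called lower on days 2, 3 and 5, and 11.4%, 24.2% and 26.9% after rescaling. POLR1A encodes the largest subunit of the enzyme, and its level was 24.3, 22.04 and 17.7 TPM at day 0, 14.6, 13.1 and 13.2 TPM at day 2, 2.86, 7.56 and 4.403 TPM at day 3 and 3.25, 3.43 and 6.704 TPM at day 5. POLR1B encodes the second-largest subunit, which forms the catalytic centre together with POLR1A, and was at 49.9, 58.6 and 52.8 TPM at day 0, 25.6, 31.9 and 25.9 TPM at day 2, 9.63, 13.6 and 10.6 TPM at day 3 and 4.98, 4.495 and 12.2 TPM at day 5. For both genes all treated libraries were below all day 0 libraries, and H8 and H12 were the highest of their groups. At day 5 the log2 fold change was -2.08 for POLR1A (standard error 0.265, limma adjusted p = 5.07e-06) and -2.85 for POLR1B (standard error 0.255, adjusted p = 1.43e-07). After rescaling these were -0.99 and -1.72, and both were still called.

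POLR1C encodes a subunit that Pol I shares with RNA polymerase III, and it was at 64.7, 54.3 and 59.05 TPM at day 0, 46.9, 51.2 and 45.5 TPM at day 2, 30.5, 33.7 and 33.6 TPM at day 3 and 20.3, 19.9 and 17.1 TPM at day 5. The groups did not overlap, but its log2 fold change of -1.58 at day 5 was the smallest of the 5 genes. After rescaling POLR1C was not called on any day, with -0.07, 0.01 and -0.40 on the 3 days. The initiation factors fell more. UBTF, which encodes the factor that keeps ribosomal RNA genes open, was at 82.7, 82.05 and 84.7 TPM at day 0, 52.8, 56.9 and 54.1 TPM at day 2, 22.6, 26.02 and 21.4 TPM at day 3 and 13.9, 13.4 and 19.9 TPM at day 5. RRN3, which encodes the factor that makes Pol I competent to start, was at 32.2, 33.4 and 29.2 TPM at day 0, 19.3, 19.5 and 17.9 TPM at day 2, 8.58, 11.1 and 9.09 TPM at day 3 and 5.29, 5.95 and 8.01 TPM at day 5. In both genes every group lay below the one before it without overlap. Their day 5 log2 fold changes were -2.35 (standard error 0.128, limma adjusted p = 1.15e-09) and -2.15 (standard error 0.138, adjusted p = 5.55e-09), and -1.17 and -1.02 after rescaling. Several numbered RRN3 pseudogenes are features of their own and reached up to 42.8% of the TPM of RRN3 in a library, so reads could be split between them and the RRN3 value is less certain.

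**Figure D3:**
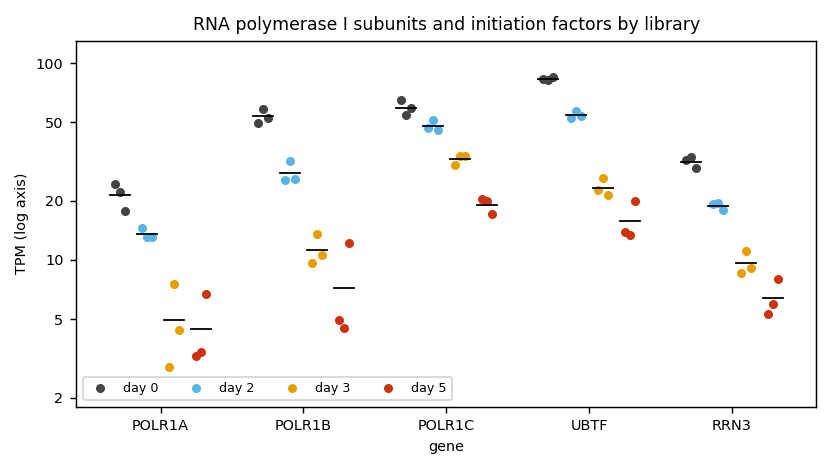
TPM on a log axis for POLR1A, POLR1B, POLR1C, UBTF and RRN3 by library, coloured by day, with a line at the mean of 3 libraries. Mean UBTF goes from 83.2 TPM at day 0 to 15.7 TPM at day 5 and mean POLR1C from 59.3 to 19.1 TPM, with no treated library reaching the day 0 range in any of the 5 genes.

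The box C/D snoRNP proteins were called lower on each of the 3 days as deposited, as were 22.6% of all tested features. FBL encodes fibrillarin, the methyltransferase of the particle, and was at 475, 500.1 and 466 TPM at day 0, 289, 271 and 268 TPM at day 2, 161, 181 and 139.9 TPM at day 3 and 83.6, 92.7 and 119 TPM at day 5. NOP56 and NOP58 encode the paired scaffold proteins of the same particle. NOP56 was at 167, 164 and 167 TPM at day 0, 91.4, 99.04 and 91.2 TPM at day 2, 46.1, 55.4 and 43.1 TPM at day 3 and 27.6, 29.9 and 39.3 TPM at day 5. NOP58 was at 293, 304 and 299.98 TPM at day 0, 198, 196 and 218 TPM at day 2, 166, 159 and 156 TPM at day 3 and 96.3, 103 and 100.4 TPM at day 5. No treated library of any of the 3 genes reached the day 0 range. The log2 fold change at day 5 was -2.29 for FBL, -2.34 for NOP56 and -1.57 for NOP58 (limma adjusted p = 6.99e-10, 7.81e-10 and 1.48e-10). After rescaling FBL and NOP56 were at -1.07 and -1.14 and called, while NOP58 was at -0.35 and not called.

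In the box H/ACA snoRNP all 4 genes were called lower at day 5 on the deposited scale, beside 69.8% of all tested features. NOP10 was far less changed than the other 3. DKC1 encodes dyskerin, the pseudouridine synthase of the particle, and was at 147, 146 and 159 TPM at day 0, 84.4, 94.5 and 87.1 TPM at day 2, 31.2, 44.6 and 29.7 TPM at day 3 and 19.1, 20.8 and 28.1 TPM at day 5. GAR1 encodes a protein that binds dyskerin directly, and was at 46.4, 59.5 and 50.02 TPM at day 0, 30.8, 20.01 and 27.6 TPM at day 2, 19.3, 20.7 and 11.9 TPM at day 3 and 5.52, 9.16 and 13.4 TPM at day 5. NHP2 encodes an RNA-binding protein of the core, and was at 589, 497 and 563 TPM at day 0, 358, 409 and 378 TPM at day 2, 194, 221 and 171 TPM at day 3 and 99.6, 122 and 131 TPM at day 5. All 3 genes were below the day 0 range in all treated libraries, with GAR1 the most variable between replicates. NOP10, which encodes the smallest core protein, was at 469.9, 393 and 438 TPM at day 0, 338, 362 and 355 TPM at day 2, 340.2, 319 and 366 TPM at day 3 and 293, 263 and 265 TPM at day 5. Its treated libraries were all below day 0, yet close to it. The log2 fold change at day 5 was -2.70 for DKC1, -2.42 for GAR1, -2.22 for NHP2 and -0.66 for NOP10 (limma adjusted p = 1.65e-09, 9.46e-07, 7.24e-10 and 3.81e-06). After rescaling the first 3 genes were at -1.501, -1.27 and -1.001 and called lower, and NOP10 turned to 0.56 and was called higher.

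The proteins of one particle or complex are made to work in fixed proportions, and the ratio of 2 genes within a library does not depend on how that library was scaled. Such ratios were compared between the 9 treated and the 3 day 0 libraries for 15 pairs, by a two-sided permutation test, exact over all 220 choices of 3 libraries, with Benjamini-Hochberg adjustment over the pairs. In 7 pairs the ratio differed at an adjusted p under 0.05, and in each of these all 9 treated libraries were below all 3 day 0 libraries. Each p-value refers to the 9 treated libraries together. The day 5 ratios printed beside them had no test of their own. Partners can differ in transcript length, as with 554 bases for NOP10 and 2577 for DKC1. The part of length in the ratios was not tested. The ratio of DKC1 to NOP10 went from 0.349 at day 0 to 0.0817 at day 5, and that of GAR1 to NOP10 from 0.1195 to 0.0321 (exact permutation p = 0.00909, adjusted p = 0.0273, for each). NOP56 to NOP58 went from 0.556 to 0.319 (exact permutation adjusted p = 0.0292), and FBL to NOP58 from 1.61 to 0.974 (0.0273). For FBL to NOP56 the ratio was 2.89 at day 0 and 3.05 at day 5. The mean log2 difference of all 9 treated libraries from day 0 was 0.10 (exact permutation adjusted p = 0.211).

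Among the other complexes, POLR1B to POLR1C went from 0.906 to 0.341 (exact permutation adjusted p = 0.0292), although in H12 this ratio was close to the day 0 range. PES1 to BOP1, encoding partners in the PeBoW complex of the large subunit, went from 2.37 to 1.01 (exact permutation p = 0.00455, the smallest this design allows). DKC1 to NHP2 went from 0.275 to 0.191 (exact permutation adjusted p = 0.0273). NHP2 to NOP10 also had all 9 treated libraries below day 0 but missed the threshold (exact permutation adjusted p = 0.0511). The other 7 pairs, among them POLR1A with POLR1B and DKC1 with GAR1, were not called, with adjusted p-values from 0.136 to 0.577 in the exact permutation test. Without one of the 12 libraries the smallest p the design can give rises, and each of the 7 called pairs missed the threshold without at least 3 of the libraries, H2, H3 and H8 among them, while its log2 difference stayed below 0.

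**Figure D4:**
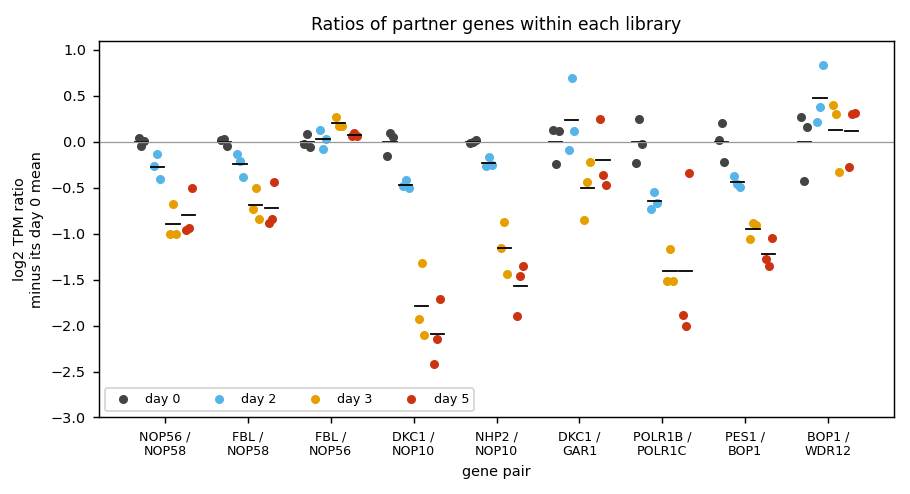
The log2 TPM ratio of 9 gene pairs in each library, minus the mean of the 3 day 0 libraries, coloured by day with a line at each mean. DKC1 over NOP10 drops furthest, while FBL over NOP56 stays near 0 and BOP1 over WDR12 scatters on both sides of it.

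The nucleolar chaperones and scaffolds held both the largest and the smallest changes of the set. LYAR, which encodes a nucleolar zinc finger protein linked to cell growth, was at 46.5, 49.4 and 42.8 TPM at day 0, 19.1, 17.9 and 17.3 TPM at day 2, 8.42, 8.63 and 7.69 TPM at day 3 and 3.73, 3.73 and 4.76 TPM at day 5. Each group lay below the one before it without overlap. Its log2 fold change was -1.30 at day 2, -2.35 at day 3 and -3.22 at day 5 (standard error 0.111, limma adjusted p = 1.28e-11 at day 5), and -2.12 at day 5 after rescaling, in each case the largest fall of the 47 genes at day 5. Its mean TPM at day 5 was 8.805% of day 0. NOLC1, which encodes a chaperone of snoRNPs, NCL and the helicase gene DDX21 were at -3.06, -2.42 and -2.62 at day 5, and all 3 were called lower on each day under both scalings.

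NPM1 and GNL3 behaved differently from these. NPM1 was at 2084, 2408 and 2174 TPM at day 0, 1858, 1777 and 1659 TPM at day 2, 1769, 1671 and 1876 TPM at day 3 and 1699.9, 1627 and 1362 TPM at day 5. All 9 treated libraries were below the day 0 range, but H12 was the lowest by a clear margin. NPM1 was called lower at day 5 on the deposited scale, with -0.51 (standard error 0.0867, limma adjusted p = 8.00e-05), and the call was lost without H2, at -0.45, or without H12, at -0.42. After rescaling NPM1 turned to 0.71 and was called higher (limma adjusted p = 8.50e-04). GNL3, which encodes the nucleolar GTPase nucleostemin, was at 244, 259.6 and 257 TPM at day 0, 215, 205 and 247 TPM at day 2, 272, 245 and 249 TPM at day 3 and 249, 239 and 218 TPM at day 5. The treated and day 0 libraries overlapped on each day. On the deposited scale its log2 fold change was -0.19, 0.01 and -0.11, with no call on any day (limma adjusted p = 0.0764, 0.936 and 0.232). After rescaling it was 0.87 at day 3 and 1.11 at day 5, called higher on both days.

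Of the 17 small subunit factors, 12 were called lower at day 2 and 16 at both day 3 and day 5. After rescaling 6, 8 and 13 were called lower on days 2, 3 and 5, and 0, 1 and 1 higher. Over all tested features 23.2%, 61.5% and 69.8% were called lower as deposited. Their rescaled shares were 11.4%, 24.2% and 26.9% lower and 12.9%, 23.9% and 27.5% higher. The lowest was NAT10, which encodes the acetyltransferase that modifies cytidines of ribosomal RNA, at 47.8, 47.005 and 40.4 TPM at day 0, 26.8, 27.01 and 24.3 TPM at day 2, 10.2, 15.3 and 10.9 TPM at day 3 and 6.304, 6.83 and 10.2 TPM at day 5. All treated libraries were below day 0, with H8 and H12 highest in their groups. At day 5 its log2 fold change was -2.41 (standard error 0.169, limma adjusted p = 1.30e-08), and -1.27 after rescaling. TSR1, NOP14, RRP12, HEATR1, UTP20 and DDX10, which encode processing and export factors of the small subunit precursor, followed with day 5 changes from -2.38 to -2.14. IMP4, UTP4, WDR43, BYSL, PNO1, RCL1 and LTV1 lay between -2.05 and -1.60, and all but LTV1 of these 7 were called after rescaling too. RRP9, which encodes a protein of the U3 snoRNP, and UTP15, a subunit of the complex that joins precursor transcription to processing, fell least among those called, with -1.28 and -1.02, and after rescaling RRP9 stood at -0.11 and UTP15 turned to 0.15, neither of them called.

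RIOK2, which encodes a kinase of late small subunit maturation, was the exception in this role. It was at 37.2, 52.6 and 42.1 TPM at day 0, 37.3, 28.8 and 32.4 TPM at day 2, 38.1, 36.98 and 46.5 TPM at day 3 and 45.6, 29.3 and 33.2 TPM at day 5. Day 0 itself was spread widely, and treated and day 0 libraries overlapped on all 3 days. Its log2 fold change was -0.40, -0.11 and -0.29 (limma adjusted p = 0.0642, 0.562 and 0.1198), and without H1 it was called at day 2, at -0.51. After rescaling RIOK2 turned to 0.74 at day 3 and 0.91 at day 5 and was called higher.

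All 12 large subunit factors were called lower at day 3 and day 5, and 10 at day 2, which after rescaling became 7, 7 and 6, with none higher. In the same order 61.5%, 69.8% and 23.2% of all tested features were lower as deposited, and 24.2%, 26.9% and 11.4% after rescaling. RRP1B, which encodes a nucleolar factor of large subunit processing, fell most, and was at 37.7, 37.9 and 36.2 TPM at day 0, 18.6, 20.98 and 19.3 TPM at day 2, 6.42, 9.38 and 6.55 TPM at day 3 and 3.86, 4.24 and 6.399 TPM at day 5. The groups did not overlap with day 0, and H8 and H12 were again the highest treated libraries of their day. Its day 5 log2 fold change was -2.74 (standard error 0.162, limma adjusted p = 2.47e-09), and -1.63 after rescaling. NOP2, which encodes a ribosomal RNA methyltransferase, NOP16, PPAN and MRTO4, factors of early and late large subunit assembly, were at -2.32, -2.25, -2.14 and -1.96, and NLE1 was at -1.63. These were called after rescaling too, whereas DDX18, BRIX1 and NIP7, at -1.49, -1.34 and -1.33, were not called at day 5 after rescaling.

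The PeBoW complex, which joins PES1, BOP1 and WDR12 on the large subunit precursor, did not move evenly. PES1 was at 102, 93.3 and 89.99 TPM at day 0, 55.8, 66.4 and 62.2 TPM at day 2, 28.6, 34.9 and 26.7 TPM at day 3 and 16.3, 19.3 and 24.8 TPM at day 5. BOP1 was at 42.5, 34.1 and 44.4 TPM at day 0, 30.5, 38.7 and 36.9 TPM at day 2, 25.1, 27.3 and 21.2 TPM at day 3 and 16.8, 20.8 and 21.6 TPM at day 5. WDR12 was at 96.4, 126 and 109 TPM at day 0, 71.6, 81.2 and 56.5 TPM at day 2, 51.8, 60.6 and 72.5 TPM at day 3 and 55.5, 46.2 and 47.5 TPM at day 5. PES1 fell step by step, whereas in BOP1 the day 2 libraries overlapped day 0 and in WDR12 the day 3 libraries overlapped both day 2 and day 5. At day 5 the log2 fold change was -2.20 for PES1, -0.995 for BOP1 and -1.13 for WDR12 (limma adjusted p = 5.11e-09, 1.32e-05 and 7.50e-06). After rescaling PES1 was at -1.01 and still called, and BOP1 and WDR12 turned to 0.19 and 0.08 and were not called.

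**Figure D5:**
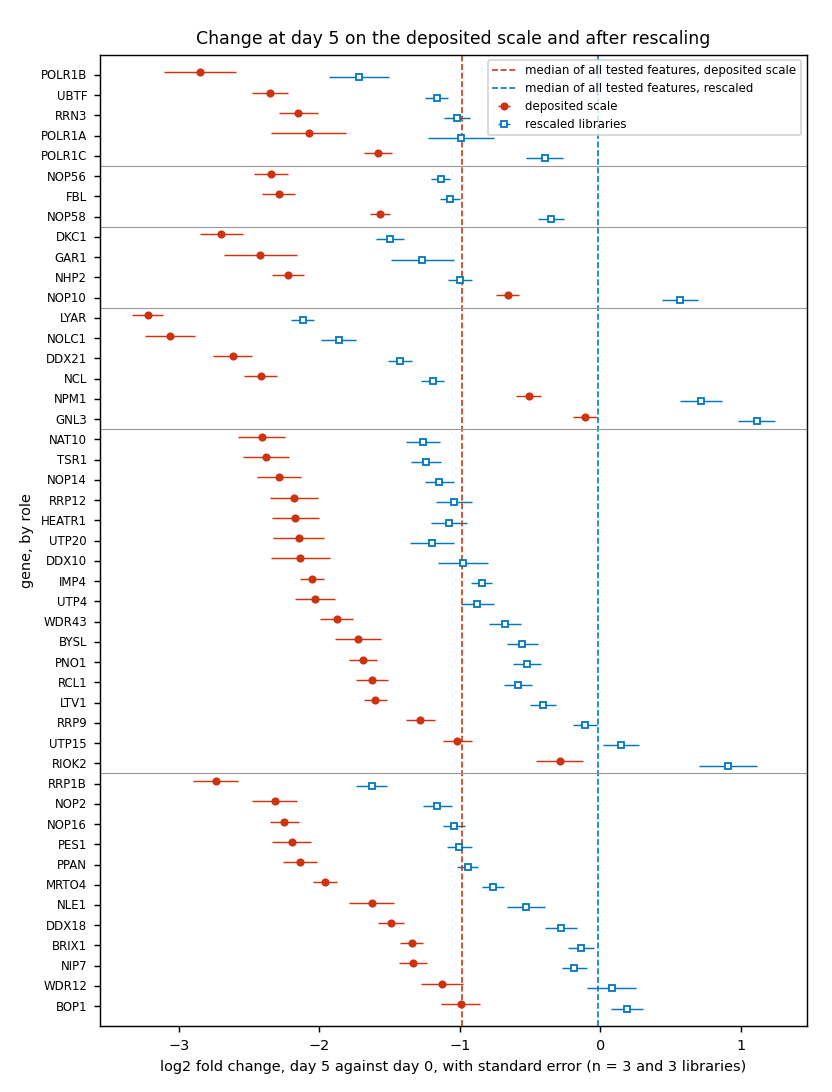
The log2 fold change of the 47 genes at day 5 against day 0 with its standard error, on the deposited scale and after rescaling, with dashed lines at the median of all tested features on each scale. Most members lie left of the dashed line of their scale, and NPM1, GNL3, NOP10 and RIOK2 lie right of it on both.

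Between neighbouring days the fall was not even. From day 2 to day 3, 33 members were called lower on the deposited scale and 0 higher, against 55.5% and 3.22% of all tested features, with a median of -0.77 beside -0.57 for all. After rescaling 10 members were called lower and 7 higher, against 13.6% and 14.3% of all features. The 10 were POLR1A, POLR1B, UBTF, DKC1, NOLC1, DDX21, NOP14, RRP12, TSR1 and RRP1B. The 7 were NPM1, GNL3, NOP10, RIOK2, UTP15, RRP9 and BRIX1, of which the last 3 had been called lower at day 2 under both scalings. BRIX1, a factor of large subunit assembly, was at 92.5, 96.9 and 98.3 TPM at day 0, 50.2, 45.7 and 51.1 TPM at day 2, 56.04, 52.1 and 54.6 TPM at day 3 and 34.4, 38.8 and 38.5 TPM at day 5. Its day 3 libraries were all above its day 2 libraries, and its log2 change from day 2 to day 3 was 0.15 as deposited (limma adjusted p = 0.125) and 0.77 after rescaling.

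From day 3 to day 5, 29 members were called lower and 0 higher, against 13.1% and 0.67% of all tested features, with a median of -0.55 beside -0.25 for all. All 47 changes were below 0 as deposited, and 10 of them turned above 0 after rescaling. This count rested on single libraries, being 15 without H8, 14 without H10, 19 without H11 and 34 without H12. After rescaling only LYAR was called, with -0.59 (limma adjusted p = 9.25e-04), against 2.03% of all features called lower and 4.43% higher. POLR1B changed by -0.68 over this step and was not called (limma adjusted p = 0.0595), but was called without H12, at -1.09.

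The 116 further ribosome biogenesis genes of a wider list moved in the same direction as the members, to a lesser extent in the median. All 116 were tested, and 73, 96 and 100 were called lower on days 2, 3 and 5 and 0, 2 and 2 higher, with medians of -0.59, -1.26 and -1.80. After rescaling 28, 52 and 70 were called lower and 1, 17 and 18 higher. Over all tested features 23.2%, 61.5% and 69.8% were called lower as deposited. Their rescaled shares were 11.4%, 24.2% and 26.9% lower and 12.9%, 23.9% and 27.5% higher. Of 10 other Pol I subunits and factors 8 were called lower at day 5, from POLR1G, listed as CD3EAP, at -2.81 to POLR1H, listed as ZNRD1, at -0.13 and not called (limma adjusted p = 0.193). POLR1G had a mean of 43.6 TPM at day 0 and 5.39 TPM at day 5. POLR1H had 33.8 and 30.7 TPM, and after rescaling turned to 1.06, so Pol I subunits differed widely among themselves.

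Among the 10 snoRNP assembly genes 9 were called lower at day 5, with the ATPase gene RUVBL1 lowest at -2.26, and ZNHIT3, a box C/D assembly factor, higher at 0.999. ZNHIT3 went from 47.7 TPM to 96.3 TPM. Of 38 other small subunit factors 33 were called lower and 0 higher, from WDR3 at -2.61 to WDR75 at -0.20, which was not called as deposited and turned to 1.01 after rescaling. Of 44 other large subunit factors 37 were called lower, with RBM28 lowest at -2.94, and 1 higher. That gene was RSL24D1, which encodes a late assembly factor related to a ribosomal protein, and it went from 142 TPM to 385 TPM, at 1.43 (limma adjusted p = 1.56e-08). Of 14 genes of the RNA exosome, which trims ribosomal RNA precursors, 13 were called lower, with EXOSC2 lowest at -2.28, and the cofactor gene C1D stood at 0.14 and was not called. As background, 69.8% of all tested features were called lower at day 5 as deposited, and 26.9% lower and 27.5% higher after rescaling. After rescaling 6 of the 10 other Pol I genes, 7 of the 10 snoRNP assembly genes, 24 of the 38 small subunit factors, 28 of the 44 large subunit factors and 5 of the 14 exosome genes were called lower, and 2, 1, 5, 8 and 2 higher.

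The 79 ribosomal protein genes, whose products form ribosomes together with ribosomal RNA, did not share the fall. At day 5, 22 were called lower and 27 higher as deposited, with a median of 0.02 beside -2.14 for the biogenesis genes. After rescaling 0 were lower and 65 higher. Of all tested features 69.8% were lower and 7.73% higher as deposited, and 26.9% and 27.5% after rescaling. On days 0, 2, 3 and 5 their share of all TPM was 28.9% ± 0.546, 33.9% ± 0.318, 42.8% ± 2.11 and 48.7% ± 0.878 (SD over n = 3). Mitochondrial transcripts took 9.95% ± 0.702 at day 0 and 14.2% ± 0.642 at day 5 (SD over n = 3). Both shares thus went up as the members went down, and their part in the members' log2 fold changes was examined by leaving ribosomal protein and mitochondrial features out and recomputing TPM. In that setting 26, 35 and 40 members were called lower on days 2, 3 and 5, and 0, 0 and 1 higher, the last being GNL3 at 0.61. Of all 11845 features tested in it, 1893, 5144 and 5706 were called lower and 1476, 1788 and 1996 higher. The median of the members was then -0.53, -1.05 and -1.495, beside -0.07, -0.39 and -0.48 for all features of that setting. MYC itself ranged from 79.8 to 97.2 TPM at day 0, from 109 to 125 TPM at day 2, from 39.8 to 65.9 TPM at day 3 and from 32.6 to 55.9 TPM at day 5. Its log2 fold change was 0.41 at day 2 (limma adjusted p = 0.0964), -0.80 at day 3 (0.00170) and -1.06 at day 5 (1.40e-04). MYC was thus called lower on days 3 and 5 as deposited. The rescaled changes were 0.64, 0.06 and 0.14 (limma adjusted p = 0.00292, 0.751 and 0.388). On that scale MYC was called higher on day 2, and neither later day had a call.

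Since most members moved together, their promoters were searched for the E-box CACGTG, a short palindromic site that MYC with its partner MAX, and other factors of its class, can bind. RefSeq promoters of build GRCh38.p14, from 250 bases before to 50 bases after the annotated start, were on hand for 41 of the 47 members. The motif was found in 17 of these, or 41.5%, against 7.44% of the 27305 promoters in the whole table and 23.5% of 98 promoters of the wider list. The whole table includes genes that were not tested here, and the share among tested features alone was not computed. As the motif reads the same on both strands, one search covers both. In all of the 17 but NOP2 a copy started within 28 bases of the start. The following windows show it, with the E-box in capitals, for 7 genes taken from the box C/D, box H/ACA, small subunit and large subunit roles, with different sizes of change. No Pol I gene and no nucleolar chaperone or scaffold on hand held it. The windows are chr19:39846356-39846385 on the minus strand for FBL, chr15:34343130-34343159 on the minus strand for NOP10, chr12:101280083-101280112 on the plus strand for UTP20, chr3:51941892-51941921 on the minus strand for RRP9, chr11:34105602-34105631 on the plus strand for NAT10, chr22:30591880-30591909 on the minus strand for PES1 and chr1:19251807-19251836 on the plus strand for MRTO4.
FBL: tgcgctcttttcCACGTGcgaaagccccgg
NOP10: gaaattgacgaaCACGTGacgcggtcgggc
UTP20: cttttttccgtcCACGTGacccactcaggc
RRP9: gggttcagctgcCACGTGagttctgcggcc
NAT10: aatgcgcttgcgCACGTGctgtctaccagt
PES1: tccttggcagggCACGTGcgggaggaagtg
MRTO4: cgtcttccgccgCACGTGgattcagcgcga

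In these windows the E-box starts 10 bases before the annotated start in UTP20 and 5 bases before it in RRP9, and 6 bases after the start base in FBL. NOP10 and IMP4 held 2 copies each. LYAR and NPM1 were among those without it. The 17 members with an E-box had a median log2 fold change of -1.96 at day 5, and the 24 without one -2.16, and their ranges overlapped. With an E-box the changes ran from -2.41 to -0.66, and without one from -3.22 to -0.11. A match is a run of letters and does not show that a factor was bound.

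The members lie on 19 chromosomes, with 9 of them on chromosome 2. On chromosome 2 (GRCh38), POLR1A spans bases 86020216 to 86106155 of the minus strand and POLR1B bases 112541915 to 112577150 of the plus strand. By GENCODE release 29, 20 members have an exon that overlaps a gene on the other strand, POLR1C and UBTF among them, and 9 overlap a gene on the same strand. In PPAN this is the read-through gene PPAN-P2RY11, and in NOP56, DKC1 and GNL3 it includes small nucleolar RNAs encoded within the gene. Whether the quantification used strand is not given in the sources used here, so for these members reads of the overlapping genes cannot be told apart. Across the 47 members the log2 fold change had a Spearman coefficient with transcript length of -0.11, -0.43 and -0.26 on days 2, 3 and 5, beside -0.02, -0.17 and -0.15 across the 10422 tested features with a length. With the day 0 level the coefficient was 0.054, 0.095 and -0.072 across the members on these days, and -0.31, -0.32 and -0.38 across all tested features. Among all features those with higher day 0 levels thus tended to fall more. The part of level in the difference between the members and all features was not tested. These are values across genes of the same libraries. The 23 shorter members had a median change of -1.73 at day 5 and the 24 longer ones -2.18.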

How the data were processed

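Total RNA of MM1S cells was sequenced by the authors at day 0 and after 2, 3 and 5 days of NGI-1, with 3 libraries per group. The submitters' processing notes name FastQC, Trimmomatic, STAR, Salmon and hg38, with no versions. The annotation is not given in the sources used here. The authors deposited log2 values of TPM plus 1, which keep no read counts, so depth and counting error are unknown and precision is read from the 3 libraries of a group.

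Groups followed the time point in the labels. The 11939 of 59276 features that reached 1 TPM in 3 or more libraries were fitted with limma 3.58.1 in R 4.3.3, 1 mean per group over all 12 libraries with a mean-variance trend. Each contrast had its own Benjamini-Hochberg adjustment. The procedure was tested on simulated data. Ratios of partner genes were compared by exact permutation. The members and gene lists were chosen with earlier results of these data known, so lists are described by counts and medians only. Values in every library are given for the Pol I genes, the extremes of each other role at day 5 and the partner genes, and also for NPM1 and BRIX1, which were chosen after their values were seen. Alternatives were no filter, a pseudocount of 0.1, rescaling, TPM without 116 ribosomal protein and mitochondrial features, pairwise fits and leaving out each library. Promoters came from RefSeq (GRCh38.p14), and gene positions and lengths from GENCODE release 29. Protein sequences were not analysed here. One marker gene is not reported here.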

Additional observations from a re-analysis of the deposited data

Results flagged for a closer look

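The change of 3 members from day 2 to day 3 had the opposite sign to their change from day 0 to day 2, with both steps called by limma after rescaling. In the second step 7 of the 47 members were called higher on that scale, beside 14.3% of all tested features. How many of all features turned in this way was not counted, so the 3 genes are not shown to be unusual. For UTP15, whose product joins ribosomal RNA transcription to processing, the second step was 0.71 after a first step of -0.59. For RRP9, a U3 snoRNP gene, it was 0.52 after -0.64, and for BRIX1, a large subunit factor, 0.77 after -0.72. Both steps use the same day 2 libraries. On the deposited scale the second step was 0.11, -0.08 and 0.15, with no call for any of the 3 genes.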

How the results depend on the processing

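No paired analysis was possible because the labels give no replicate numbers shared between groups. The fall of the members at days 2, 3 and 5 kept its direction in the median under each alternative run, and counts of lower calls against day 0 moved beyond 1.5 times only by rescaling, to 21 at day 2 and 28 at day 3. The cause of the changes listed here was not tested unless the alternative itself shows it. Depth is unknown, so the counting error of genes of a few TPM cannot be given.

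The members' median minus that of all features was -0.67, -1.45, -2.08, -0.72 and -0.52 with no filter for days 2, 3 and 5 against day 0, day 3 against day 2 and day 5 against day 3, since features near 0 then set the median of all. With a pseudocount of 0.1 it was -1.01 at day 5 and -0.10 from day 2 to day 3, after rescaling -0.61 at day 3, -0.96 at day 5 and -0.099 from day 2 to day 3, and without ribosomal protein and mitochondrial features -0.66, -1.01 and -0.12. Rescaling gave 4 members higher at day 3 and at day 5, 10 lower and 7 higher from day 2 to day 3, and 1 lower from day 3 to day 5. Without ribosomal protein and mitochondrial features 1 was higher at day 5, 2 were higher from day 2 to day 3 and 2 lower from day 3 to day 5, the last being 18 with pairwise fits. Of the wider list 28 and 52 were lower at days 2 and 3 after rescaling.

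With each library left out in turn, the median difference at day 2 lay between -0.54 and -0.48, at day 3 between -0.84 and -0.71 and at day 5 between -1.20 and -1.03, and the day 3 to day 5 count from 14 to 34. The log2 ratio difference ran from -1.27 to -1.03 for POLR1B to POLR1C, from -0.60 to -0.51 for FBL to NOP58, from -0.72 to -0.61 for NOP56 to NOP58, from -0.53 to -0.41 for DKC1 to NHP2, from -1.58 to -1.33 for DKC1 to NOP10, from -1.43 to -1.12 for GAR1 to NOP10, from -1.09 to -0.87 for NHP2 to NOP10 and from -0.98 to -0.77 for PES1 to BOP1. NHP2 to NOP10 passed the threshold without any 1 of the day 2 libraries.

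After rescaling 2, 10 and 7 members turned in sign at days 2, 3 and 5 against day 0, 12 from day 2 to day 3 and 10 from day 3 to day 5. Those against day 0, with the Pol I genes between days and RRP9 from day 2 to day 3, were POLR1C at day 3 (0.0063) and from day 2 to day 3 (0.078), POLR1A from day 3 to day 5 (0.20), NOP10 (0.52 and 0.56), NPM1 (0.54 and 0.71), RIOK2 (0.74 and 0.91), UTP15 (0.12 and 0.15) and WDR12 (0.024 and 0.080) at days 3 and 5, GNL3 at days 2 and 5 (0.039 and 1.11), BOP1 on the 3 days (0.042, 0.15 and 0.19), NIP7, BRIX1 and DDX18 at day 3 (0.017, 0.045 and 0.012) and RRP9 from day 2 to day 3 (0.52). Without ribosomal protein and mitochondrial features 0, 3, 4, 4 and 5 turned in the same order, and the ones of that kind were POLR1A (0.11) from day 3 to day 5, NOP10 (0.13 and 0.058), NPM1 (0.15 and 0.21) and RIOK2 (0.36 and 0.42) at days 3 and 5, GNL3 at day 5 (0.61) and RRP9 from day 2 to day 3 (0.24). Leaving out 1 library turned GNL3 at day 3 (-0.019 without H1 and -0.040 without H7, at most 0.037), RIOK2 at day 3 (0.025 without H2, down to -0.22 without H1) and POLR1A from day 3 to day 5 (0.20 without H8, 0.053 without H10 and 0.024 without H11, down to -0.38 without H12).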
